A study of Mus musculus with 12 samples.

Results

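The 41 genes described here encode subunits of the receptors for glutamate, GABA and glycine in the mouse retina, and were found by gene symbol among the 32867 genes of the count table. They comprise 4 AMPA (Gria), 5 kainate (Grik), 7 NMDA (Grin), 1 delta (Grid1) and 6 metabotropic (Grm) glutamate receptor genes, 10 GABA-A (Gabra, Gabrb, Gabrg and Gabrd), 3 GABA rho (Gabrr) and 5 glycine receptor (Glra and Glrb) genes. The list does not hold every gene of these families. The rule that picks the members out of the table uses gene symbols and no measured value. The list itself was drawn up with earlier results of these data known. The study compared RNA from whole retinas of 3 mouse models of inherited retinal degeneration with RNA from wild-type C3H retinas, at 3 samples for each of the 4 groups, to see which genes change around the time when most photoreceptors die. The study used mice of either sex. The Pde6b rd1 mice carry a viral insertion in the gene for the beta subunit of the rod phosphodiesterase, and their samples were taken at postnatal day 13. The study's methods give them a C3H background. The Pde6b rd10 mice carry a point mutation in the same gene on a C57Bl6/J background, and their samples were taken at day 23. The Prph rd2 mice carry a mutation in the gene for peripherin, a protein that outer segments need, and their samples were taken at day 29. For these mice the labels give a C57BL6/J background and the study's methods a C3H background. The labels give the 3 C3H samples 3 different ages, day 13, day 23 and day 29, and each model was compared with all of them. Each model therefore differs from C3H in age composition as well as in genotype, and Pde6b rd10 differs from C3H and Pde6b rd1 also in background, so that these factors cannot be told apart in the design.

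Photoreceptors release glutamate onto bipolar and horizontal cells. OFF bipolar cells read it with AMPA and kainate receptors, ion channels that open when glutamate binds, and ON bipolar cells with a metabotropic receptor, which acts through G proteins. Bipolar cells in turn excite amacrine and ganglion cells, which carry AMPA and NMDA receptors. Amacrine cells release GABA or glycine, whose receptors are chloride channels: GABA-A receptors built of alpha, beta and gamma or delta subunits, GABA rho receptors, which are abundant on bipolar cell terminals, and glycine receptors of alpha and beta subunits.

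The samples held 17049495 to 24755890 reads on genes, and 0.198 to 0.238% of them fell on the 41 members. A count of 3 reads, taken as the floor, was 0.121 to 0.176 CPM, and this floor covers counting error only. Pde6b reads lay between 24335 and 29129 in C3H and between 4937 and 6253 in Pde6b rd1. Prph2 reads lay between 30656 and 34634 in Prph rd2 against 52768 to 65756 in C3H, so both targeted genes were lower in their own models. Prph2 was lower in the other models too, at 29041 to 35541 reads in Pde6b rd1 and 38587 to 51724 in Pde6b rd10. Its fall was therefore not particular to Prph rd2. In Pde6b rd10, which carries a point mutation, Pde6b reads lay between 16340 and 21014. Nnt, which C57BL/6J mice are known to carry with a deletion, had 11 to 15 reads in C3H, 23 to 62 in Pde6b rd10 and 12 to 18 in Prph rd2. In Pde6b rd1, the model on the C3H background, it had 27 to 45 reads and was called 2.72-fold higher than in C3H, so that these counts did not follow the stated backgrounds. Among the members, pairs of C3H samples differed by a median of 0.04 to 0.09 on the log2 scale, although their labels give different ages, and pairs of same-age samples of 1 model by 0.08 to 0.15. The labels do not say whether the samples of a group came from separate mice, so the p-values measure the spread between these samples, which may be technical.

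The other cell types of the retina were followed by the summed FPKM of marker genes, where FPKM are read counts scaled for the length of the gene and the depth of the sample. In C3H the sum of 8 rod markers was 5355 to 5575, and it was 2832 to 2902 in Pde6b rd1, 4539 to 4813 in Pde6b rd10 and 3506 to 3766 in Prph rd2. The sum of 9 bipolar cell markers was 344 to 358 in C3H, and in the models 381 to 383 (Pde6b rd1), 318 to 326 (Pde6b rd10) and 359 to 379 (Prph rd2), and that of 8 amacrine cell markers was, in the same order, 190 to 193, 177 to 178, 205 to 210 and 207 to 218. Of these rod markers 5 fell in Pde6b rd1, and 4 did in Pde6b rd10 and 3 in Prph rd2. Of 7 cone markers, whose sum was 191 to 192 in C3H, 118 to 122 in Pde6b rd1 and 290 to 294 in Pde6b rd10, 4 fell in Pde6b rd1 and 4 rose in Pde6b rd10. Of the bipolar and amacrine cell markers 1 bipolar gene fell in Pde6b rd1 and 1 amacrine gene in Pde6b rd10, and 11 ganglion cell markers held 2 that fell in Pde6b rd1 and 3 in Pde6b rd10. The sum of 8 microglia markers was 23.5 to 24.6 in C3H and 78.9 to 89.3 in Pde6b rd10, where 7 of them rose, and that of 7 Müller glia markers 755 to 773 in C3H and 388 to 395 in Pde6b rd1. Of these 7 genes Glul, Aqp4 and Kcnj10 fell in Pde6b rd1, and Glul alone went from a mean FPKM of 528 to 192, while Slc1a3, Vim and Sox9 had log2 fold changes of 0.00, -0.02 and 0.05. Of all marker genes, Best1 and Mlana of the pigment epithelium were listed at 0 in at least 1 sample. In whole retina, fewer cells of a type and less RNA per cell cannot be told apart, and the part of these shifts in the results below was not tested.

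In C3H the members' mean FPKM ran from 33.1 for Gabrr1 down to 0.407 for Grin3b, with Gabra6 listed at 0. Gabrr1, Gria4, Grik5, Glrb and Gabrr2 were the 5 highest, with mean FPKM of 33.1, 24.4, 20.5, 20.2 and 16.3. These are levels per gene length, and comparisons between genes, here and in the shares below, depend on the lengths used. The lengths ran from 2010 bases for Glra4 to 24842 for Grin2b. Gria2, at 15548 bases, and Gria4, at 6305, had 2884 to 3598 and 2998 to 3643 reads in C3H, but mean FPKM of 9.55 and 24.4. Within the classes, Gria4 was the highest and Gria3 the lowest AMPA subunit, at mean FPKM of 24.4 and 6.29, and Grik5 and Grik4 were the highest and lowest kainate subunits, at 20.5 and 1.38. Among the NMDA subunits Grin1, which every NMDA receptor needs, stood at 8.97 and Grin3b at 0.407. Among the metabotropic receptors Grm7 stood highest at 9.57 and Grm8 lowest at 2.83. Gabra3, at 13, led the GABA-A members. Gabra6 had no read in 11 samples and 2 reads in 1 Prph rd2 sample, and was the only member that did not pass edgeR's filter on low counts. It is a subunit best known from cerebellar granule cells.

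**Figure D1:**
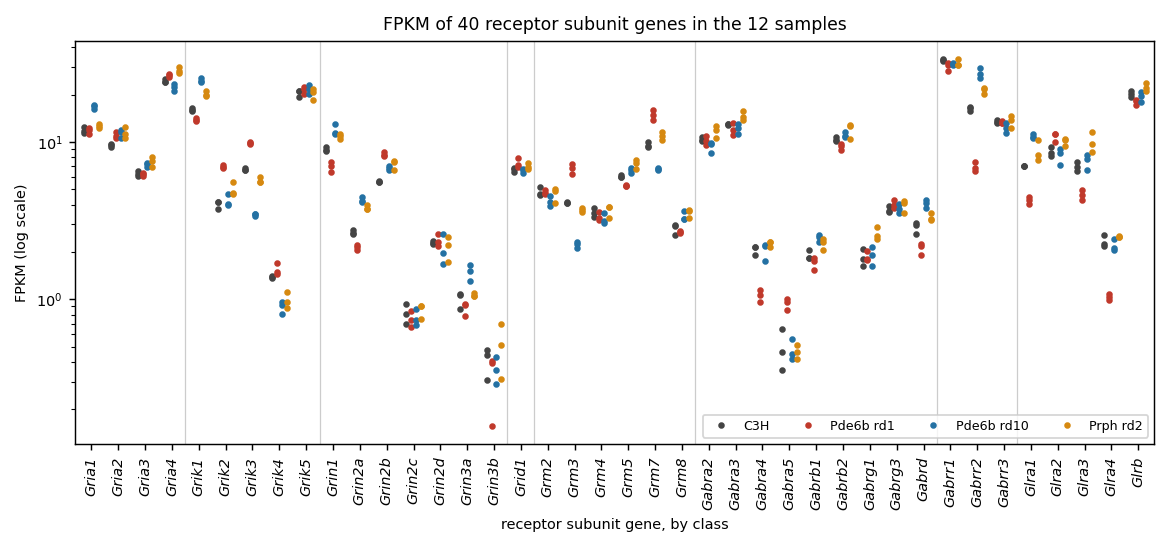
FPKM on a log scale for the 40 members other than Gabra6, by receptor class; each point is 1 of the 12 samples, coloured by group. Gabrr1 is the highest member in C3H, and the Pde6b rd1 and Pde6b rd10 samples of Gabrr2, Grm3 and Grik3 lie on opposite sides of C3H.

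A member was called in a comparison with a fold change of 1.5 or more and an unadjusted p below 0.05 in edgeR's quasi-likelihood test on the counts, the study's thresholds. The adjusted p-values below are Benjamini-Hochberg values over all genes tested. In Pde6b rd1, 8 of 40 tested members were called, 3 higher and 5 lower, a share of 20% beside 15.0% of the 18310 genes tested, 8.98% higher and 6.03% lower. In Pde6b rd10, 5 of 40 were called, 2 higher and 3 lower, a share of 12.5% beside 23.9% of 18704 genes, 15.9% higher and 8.08% lower. In Prph rd2 none of 40 was called, beside 4.57% of 18581 genes, 2.68% higher and 1.89% lower. The members' median log2 fold changes in Pde6b rd1, Pde6b rd10 and Prph rd2 were -0.13, -0.05 and 0.15, and that of all tested genes -0.01, 0.00 and 0.00. Counted in both directions, 11 members were called in at least 1 model: Gabrr2, Gabra4, Gabra5, Glra1, Glra3, Glra4, Grik2, Grik3, Grik4, Grin2a and Grm3. Gabrr2 and Grm3 were called in both Pde6b models, with opposite signs, in comparisons that share the C3H samples. The share of all genes called in at least 1 model was not counted, nor that called with opposite signs in both Pde6b models. These numbers of members therefore have no background beside them and only list the genes.

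**Figure D2:**
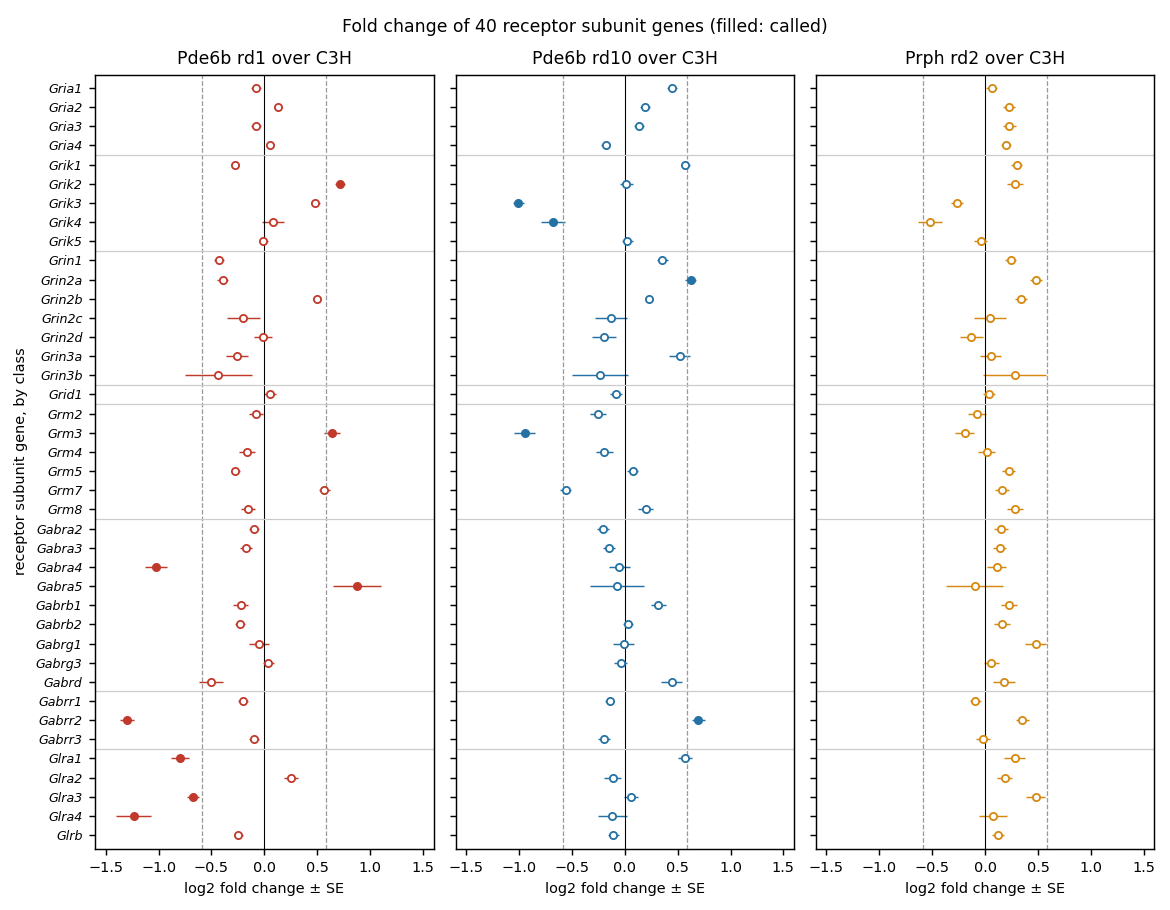
The log2 fold change over C3H with its standard error for 40 members in each model, by receptor class; filled points are called and dashed lines mark a fold of 1.5. Filled points number 8 for Pde6b rd1, 5 for Pde6b rd10 and 0 for Prph rd2.

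Of the GABA rho subunits only Gabrr2 was called, and it had the largest fall of any member in Pde6b rd1. Gabrr2 (ENSMUSG00000023267, chr4:33062999-33095865, GRCm38, plus strand) encodes the rho2 subunit and lies next to Gabrr1 (chr4:33132521-33163588) on the same strand. The C3H samples stood at 15.7, 16.8 and 16.4 FPKM, compared with 6.59, 6.88 and 7.47 in Pde6b rd1, 27, 29.6 and 25.7 in Pde6b rd10, and 20.1, 22 and 21.7 in Prph rd2. The 4 groups did not overlap: Pde6b rd1 lay below C3H, and Prph rd2 and then Pde6b rd10 lay above it. In edgeR its log2 fold change was -1.30 (SE 0.07, adjusted p = 1.47e-13) in Pde6b rd1 and 0.69 (SE 0.06, adjusted p = 5.08e-09) in Pde6b rd10. In Prph rd2 it was 0.35 (SE 0.06, adjusted p = 0.00178), under the fold threshold. Gabrr1, the rho1 subunit, had a log2 fold change of -0.20 (SE 0.05) in Pde6b rd1, -0.14 (SE 0.05) in Pde6b rd10 and -0.09 (SE 0.06) in Prph rd2. Gabrr3, the rho3 subunit, stayed within 11.4 to 14.7 FPKM in all 12 samples. In C3H, Gabrr2 took 25.9% ± 0.735 (SD, n = 3) of the summed FPKM of the 3 rho genes, and its share was 13.8% ± 0.562 in Pde6b rd1 and 38.7% ± 1.96 in Pde6b rd10. In Prph rd2 it took 31.9% ± 2.01. In each model the exact two-sided permutation p against C3H was 0.1, the smallest that 3 against 3 samples allow, and this limit holds for every share given below.

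The promoter windows of Gabrr2 and Gabrr1, neighbours of which only Gabrr2 was called, are shown with those of Grm3 and Grik3, which had the largest falls in Pde6b rd10. The windows are from RefSeq (GRCm38.p6), read 5′ to 3′ on the gene's strand from 250 bases before to 50 after the annotated start, and capitals mark matches on either strand to TAATCC, the core bound by photoreceptor and bipolar homeodomain factors such as CRX, or to GGGCGG, the GC box.
Gabrr2, chr4:33062862-33063161, plus strand: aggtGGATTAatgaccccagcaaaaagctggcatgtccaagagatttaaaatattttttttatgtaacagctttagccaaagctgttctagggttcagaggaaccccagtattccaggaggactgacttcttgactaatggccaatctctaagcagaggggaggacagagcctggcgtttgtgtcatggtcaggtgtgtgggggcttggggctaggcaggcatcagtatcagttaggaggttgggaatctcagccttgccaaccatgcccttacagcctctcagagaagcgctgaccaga
Gabrr1, chr4:33132306-33132605, plus strand: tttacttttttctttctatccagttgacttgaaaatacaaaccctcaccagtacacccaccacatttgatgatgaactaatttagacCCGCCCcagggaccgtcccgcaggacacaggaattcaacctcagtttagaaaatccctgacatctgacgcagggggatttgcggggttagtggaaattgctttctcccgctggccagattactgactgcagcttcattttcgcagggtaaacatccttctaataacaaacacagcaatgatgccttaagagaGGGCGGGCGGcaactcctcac
Grm3, chr5:9725303-9725602, minus strand: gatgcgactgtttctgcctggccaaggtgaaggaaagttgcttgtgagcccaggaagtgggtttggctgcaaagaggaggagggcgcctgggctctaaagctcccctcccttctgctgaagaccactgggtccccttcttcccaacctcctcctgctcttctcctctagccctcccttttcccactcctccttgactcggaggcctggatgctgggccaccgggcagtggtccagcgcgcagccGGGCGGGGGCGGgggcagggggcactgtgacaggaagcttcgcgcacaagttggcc
Grik3, chr4:125490446-125490745, plus strand: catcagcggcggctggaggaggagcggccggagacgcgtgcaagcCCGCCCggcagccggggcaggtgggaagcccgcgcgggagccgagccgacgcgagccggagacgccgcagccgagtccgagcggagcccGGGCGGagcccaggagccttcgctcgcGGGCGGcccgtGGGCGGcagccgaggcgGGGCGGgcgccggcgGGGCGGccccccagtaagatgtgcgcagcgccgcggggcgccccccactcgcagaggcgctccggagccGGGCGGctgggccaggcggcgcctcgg
The Gabrr2 window held 1 match to TAATCC and none to GGGCGG, and the Gabrr1 window held 3 matches to GGGCGG, of which 2 overlap, and none to TAATCC. The Grm3 window held 2 adjacent matches to GGGCGG, and the Grik3 window, with 82% G and C, held 7. TAATCC was found in 7.06% of 32851 windows of this length and in 2 of the 37 windows that matched 30 members, those of Gabra2 and Gabrr2, and GGGCGG in 35.7% of all windows and in 18 of the 37. A match describes these letters and is not evidence of binding.

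Among the GABA-A genes, Gabra4 fell and Gabra5 rose in Pde6b rd1, and none of the 9 tested was called in Pde6b rd10 or Prph rd2. Gabra4 (ENSMUSG00000029211, chr5:71569749-71658308, minus strand) encodes alpha4, a subunit of receptors outside synapses. The C3H samples stood at 2.14, 1.91 and 2.14 FPKM, compared with 1.07, 0.964 and 1.14 in Pde6b rd1, 2.22, 1.76 and 2.17 in Pde6b rd10, and 2.33, 2.14 and 2.33 in Prph rd2. All 3 Pde6b rd1 samples lay below all the other samples, with a log2 fold change of -1.03 (SE 0.10, adjusted p = 1.82e-08). The start of Gabra4 overlaps that of Gabrb1 (chr5:71658113-72149037, plus strand), and since the strand setting of the counting is not given in the sources used here, reads in the overlap are of uncertain origin. Gabrb1 itself had a log2 fold change of -0.22 (SE 0.07, adjusted p = 0.0136) in Pde6b rd1. Gabra5 (ENSMUSG00000055078, chr7:57407672-57510059, minus strand) encodes alpha5, another subunit found mostly outside synapses. Its FPKM was 0.644, 0.462 and 0.356 in the C3H samples of days 13, 23 and 29, 1, 0.966 and 0.855 in Pde6b rd1, 0.557, 0.449 and 0.42 in Pde6b rd10, and 0.511, 0.464 and 0.416 in Prph rd2. The Pde6b rd1 samples, all of day 13, were above all the others, and of the C3H samples that of day 13 was the nearest. Gabra5 had few reads, 38, 33 and 21 in the C3H samples and 65, 49 and 49 in Pde6b rd1. The log2 fold change was 0.88 (SE 0.22, adjusted p = 0.00268) against all C3H samples and 0.46 (adjusted p = 0.322) against the C3H sample of day 13 alone, with which Gabra5 was no longer called. The other GABA-A members, Gabra2, Gabra3, Gabrb1, Gabrb2, Gabrg1, Gabrg3 and Gabrd, moved by less than a fold of 1.5 in every model. Gabrd, the delta subunit that partners alpha4, had log2 fold changes of -0.50 (SE 0.12) in Pde6b rd1 and 0.44 (SE 0.10) in Pde6b rd10, and Gabrg1 one of 0.48 (SE 0.10, adjusted p = 0.00644) in Prph rd2. Gabra2 and Gabra3 together made up most of the alpha set in every group, and the share of Gabra4 was 7.95% ± 0.474 in C3H and 4.35% ± 0.0778 in Pde6b rd1.

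The glycine receptor was the class with the most calls in Pde6b rd1, where 3 of its 4 alpha genes fell. Glra1 (ENSMUSG00000000263, chr11:55514238-55608198, minus strand), the alpha1 subunit of fast glycinergic synapses, stood at 7.05 FPKM in each C3H sample, at 4.06, 4.3 and 4.45 in Pde6b rd1, at 10.6, 11.3 and 10.8 in Pde6b rd10, and at 10.3, 8.31 and 7.64 in Prph rd2. Pde6b rd1 lay below and both other models above C3H in every sample. Its log2 fold change was -0.80 (SE 0.08, adjusted p = 2.93e-08) in Pde6b rd1, 0.57 (SE 0.07, adjusted p = 6.28e-07) in Pde6b rd10, just short of the fold threshold, and 0.28 (SE 0.10, adjusted p = 0.103) in Prph rd2. Without Pde6b rd10 replicate 1, and with limma on log2(FPKM + 0.1), Glra1 was called in Pde6b rd10, at 0.59 and 0.62. Glra3 (ENSMUSG00000038257, chr8:55940460-56130070, plus strand), the alpha3 subunit, stood at 7.47, 6.96 and 6.58 FPKM in the C3H samples and at 4.59, 4.3 and 4.96 in Pde6b rd1, 7.85, 6.6 and 8.27 in Pde6b rd10, and 9.72, 8.58 and 11.6 in Prph rd2. Pde6b rd1 was below every other sample (log2 fold change -0.67, SE 0.06, adjusted p = 6.92e-10), and Prph rd2 above every other sample but with a log2 fold change of 0.48 (SE 0.09, adjusted p = 0.00357), under the fold threshold. Glra4 (ENSMUSG00000018595, chrX:136757674-136780141, minus strand), the alpha4 subunit, stood at 2.56, 2.24 and 2.18 FPKM in the C3H samples and at 1.03, 0.992 and 1.08 in Pde6b rd1, 2.43, 2.13 and 2.06 in Pde6b rd10, and 2.5, 2.52 and 2.48 in Prph rd2. Only Pde6b rd1 stood apart, with a log2 fold change of -1.24 (SE 0.17, adjusted p = 1.55e-06). Glra2, the alpha2 subunit, was not called, and its log2 fold change in Pde6b rd1 had the opposite sign, 0.25 (SE 0.07, adjusted p = 0.00297). The beta subunit Glrb, which anchors the receptor to gephyrin, had a log2 fold change of -0.25 (SE 0.04, adjusted p = 5.96e-05) there. The share of Glra2 in the alpha set was 34.5% ± 0.921 in C3H and 52.2% ± 1.49 in Pde6b rd1, and that of Glra1 37.7% ± 3.26 in Pde6b rd10 against 28.2% ± 1.28 in C3H.

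**Figure D3:**
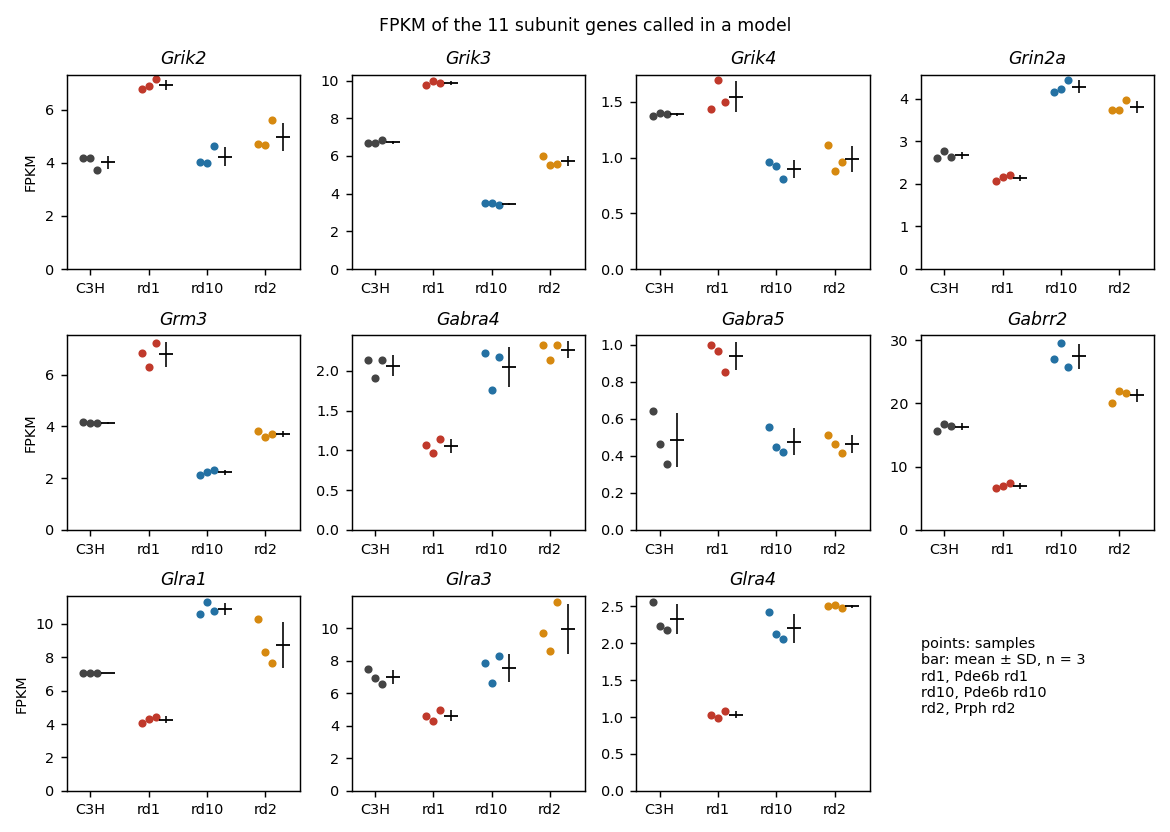
FPKM of the 11 members called in at least 1 model; points are samples and the bar beside them is the mean with its SD (n = 3), on axes that start at 0. Gabrr2 is lowest in Pde6b rd1 and highest in Pde6b rd10, Grm3 and Grik3 the reverse.

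Of the kainate receptor genes, Grik2 rose in Pde6b rd1, and Grik3 and Grik4 fell in Pde6b rd10. Grik2 (ENSMUSG00000056073, chr10:49094833-49788766, minus strand) encodes GluK2. The C3H samples stood at 4.17, 4.17 and 3.74 FPKM, compared with 6.8, 6.89 and 7.16 in Pde6b rd1, 4.04, 4 and 4.64 in Pde6b rd10, and 4.71, 4.67 and 5.6 in Prph rd2. Pde6b rd1 was above every other sample, with a log2 fold change of 0.71 (SE 0.05, adjusted p = 1.03e-11), which came to 0.47 and was not called when the counts were corrected for the GC content of the genes. Grik3 (ENSMUSG00000001985, chr4:125490700-125714173, plus strand) encodes GluK3. The C3H samples stood at 6.68, 6.67 and 6.83 FPKM, compared with 9.76, 9.99 and 9.89 in Pde6b rd1, 3.5, 3.51 and 3.41 in Pde6b rd10, and 6.02, 5.53 and 5.59 in Prph rd2. The 4 groups did not overlap, and samples within a group lay close together. The log2 fold change was -1.01 (SE 0.05, adjusted p = 1.4e-12) in Pde6b rd10, 0.48 (SE 0.04, adjusted p = 1.11e-09) in Pde6b rd1 and -0.27 (SE 0.06, adjusted p = 0.00824) in Prph rd2, the latter both under the fold threshold. Grik4 (ENSMUSG00000032017, chr9:42518135-42944493, minus strand), a high-affinity subunit that needs a partner such as GluK2, stood at 1.37, 1.4 and 1.39 FPKM in the C3H samples and at 1.44, 1.7 and 1.5 in Pde6b rd1, 0.962, 0.923 and 0.805 in Pde6b rd10, and 1.11, 0.883 and 0.962 in Prph rd2. All Pde6b rd10 and Prph rd2 samples were below all C3H and Pde6b rd1 samples. For Grik4 the log2 fold change was -0.68 (SE 0.11, adjusted p = 4.04e-05) in Pde6b rd10 and -0.52 (SE 0.12, adjusted p = 0.0115) in Prph rd2, where it was not called. Without Prph rd2 replicate 1 the latter came to -0.62 and was called. Grik1, the GluK1 subunit of OFF bipolar cells, had a log2 fold change of 0.57 (SE 0.04, adjusted p = 3.34e-10) in Pde6b rd10, just under the threshold, and was called there without C3H replicate 3 (0.59), without Pde6b rd10 replicate 1 (0.60) and with limma at both added constants (0.59 and 0.62). Grik5, the kainate subunit of highest FPKM in C3H, differed from C3H by at most 0.04 in any model. Grik1 took 33% ± 0.414 of the kainate set in C3H, and 26% ± 0.535 (Pde6b rd1), 45.1% ± 1.69 (Pde6b rd10) and 38.6% ± 1.17 (Prph rd2) in the models, and the share of Grik3 in this order was 13.8% ± 0.292, 18.4% ± 0.521, 6.32% ± 0.106 and 10.9% ± 0.319.

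Of the 7 NMDA receptor genes, Grin2a in Pde6b rd10 was the only call. Grin2a (ENSMUSG00000059003, chr16:9567898-9995560, minus strand) encodes GluN2A, the subunit that becomes more frequent in NMDA receptors as synapses mature. The C3H samples stood at 2.61, 2.77 and 2.64 FPKM, compared with 2.06, 2.16 and 2.21 in Pde6b rd1, 4.17, 4.22 and 4.45 in Pde6b rd10, and 3.74, 3.73 and 3.98 in Prph rd2. The order from Pde6b rd1 through C3H and Prph rd2 to Pde6b rd10 held without overlap. It had a log2 fold change of 0.62 (SE 0.05, adjusted p = 1.32e-09) in Pde6b rd10, -0.40 (SE 0.05, adjusted p = 1.13e-06) in Pde6b rd1 and 0.48 (SE 0.06, adjusted p = 6.59e-05) in Prph rd2. Against the C3H sample of day 23 alone the value in Pde6b rd10 was 0.57, and Grin2a was not called. Grin2b, which encodes GluN2B, the subunit of juvenile receptors, had a log2 fold change of 0.50 (SE 0.04, adjusted p = 3.85e-11) in Pde6b rd1, under the fold threshold. The share of Grin2a in the GluN2 set was 23.4% ± 0.577 in C3H, 15.7% ± 0.498 in Pde6b rd1 and 30.6% ± 1.48 in Pde6b rd10, and that of Grin2b 49.4% ± 0.411, 61.3% ± 1.27 and 49% ± 1.6. The obligatory subunit Grin1 had log2 fold changes of -0.43 (SE 0.05) in Pde6b rd1, 0.36 (SE 0.05) in Pde6b rd10 and, in Prph rd2, 0.24 (SE 0.05). Grin3a had one of 0.52 (SE 0.10, adjusted p = 0.000181) in Pde6b rd10, which came to 0.61 and was called without replicate 3 of that model, while Grin2c, Grin2d and Grin3b did not pass an adjusted p of 0.05 in any model.

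**Figure D4:**
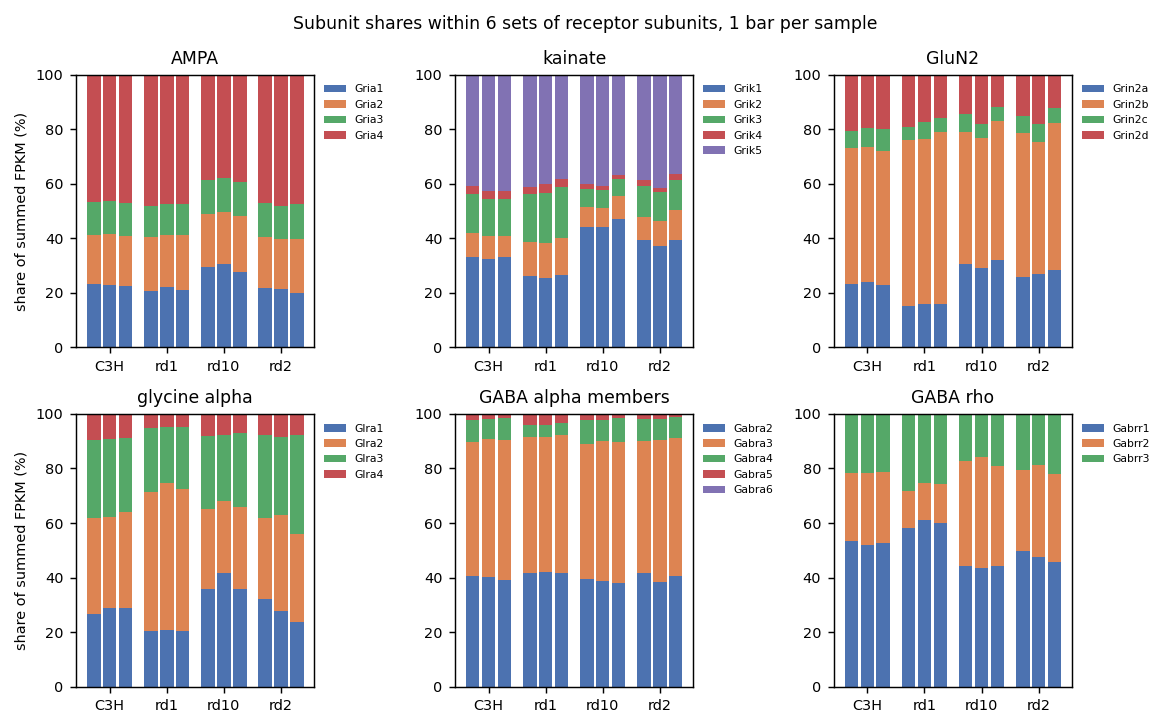
Share of each subunit in the summed FPKM of its set, in percent, with 1 stacked bar per sample. Gabrr2, Grik1 and Grin2a take a smaller share in Pde6b rd1 and a larger share in Pde6b rd10 than in C3H, and the Gabra2 and Gabra3 shares stay close to those in C3H.

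None of the 4 AMPA genes, nor the delta gene Grid1, was called in any model. The largest AMPA value was that of Gria1, the GluA1 subunit, with a log2 fold change of 0.45 (SE 0.05, adjusted p = 6.36e-08) in Pde6b rd10, where its FPKM was 16.3 to 17.1 against 11.4 to 12.4 in C3H. Gria2, whose edited subunit makes AMPA receptors impermeable to calcium, had log2 fold changes of 0.13, 0.19 and 0.23 in Pde6b rd1, Pde6b rd10 and Prph rd2. The share of Gria1 in the AMPA set was 22.8% ± 0.293 in C3H and 29.2% ± 1.38 in Pde6b rd10, and that of Gria4 46.8% ± 0.338 and 38.7% ± 0.739. Grid1 stayed within 6.32 to 7.9 FPKM in all samples.

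Of the 6 metabotropic receptor genes, Grm3 rose in Pde6b rd1 and fell in Pde6b rd10. Grm3 (ENSMUSG00000003974, chr5:9485541-9725170, minus strand) encodes mGluR3, which inhibits adenylyl cyclase. The C3H samples stood at 4.18, 4.12 and 4.12 FPKM, compared with 6.82, 6.29 and 7.24 in Pde6b rd1, 2.13, 2.24 and 2.33 in Pde6b rd10, and 3.81, 3.58 and 3.71 in Prph rd2. The 4 groups did not overlap. Its log2 fold change was 0.64 (SE 0.08, adjusted p = 4.29e-07) in Pde6b rd1, -0.95 (SE 0.10, adjusted p = 4.28e-08) in Pde6b rd10 and -0.19 (SE 0.09, adjusted p = 0.184) in Prph rd2. Grm7, a presynaptic receptor of low glutamate affinity, had values of the same signs, 0.57 (SE 0.05, adjusted p = 3.34e-09) in Pde6b rd1 and -0.56 (SE 0.05, adjusted p = 1.9e-08) in Pde6b rd10, both just under the fold threshold. Without C3H replicate 2 or Pde6b rd1 replicate 2 it was called in Pde6b rd1, as with limma, and without C3H replicate 1 in Pde6b rd10. Against the C3H sample of the same day alone it was called in both, at 0.59 in Pde6b rd1 and -0.62 in Pde6b rd10. Grm2, Grm4, Grm5 and Grm8 lay within 0.29 of C3H on the log2 scale in every model.

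Prph rd2 had no called member, also with DESeq2 and with limma. Its samples spread more than those of the other groups, with a biological coefficient of variation over all genes of 7.39% against 3.11% in C3H, 3.33% in Pde6b rd1 and 5.02% in Pde6b rd10. At an unadjusted p under 0.05, 23 of 40 members passed edgeR's test in Prph rd2, beside 23.8% of all genes, and 15 at an adjusted p under 0.05, 13 of them higher, beside 9.70% of all genes tested. The higher members included Grin2a (log2 fold change 0.48), Glra3 (0.48), Gabrg1 (0.48), Gabrr2 (0.35) and Grin2b (0.33), and the lower members were Grik4 (-0.52) and Grik3 (-0.27). With the same threshold and no fold, 8 members were higher and 16 lower in Pde6b rd1, beside 43.2% of all genes, and 13 were higher and 11 lower in Pde6b rd10, beside 54.1%.

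The Pde6b models were also compared directly, in a fit of all 12 samples that does not use C3H as the reference. In this comparison 16 of 40 members were called, 10 higher and 6 lower in Pde6b rd10, a share of 40% beside 28.8% of 19616 genes, 17.6% higher and 11.2% lower. The models differ in the mutation, in age and in background, which cannot be told apart. The inhibitory receptors made up 6 of the members higher in Pde6b rd10. These were Gabrr2 (log2 fold change 2.02, SE 0.07, a 4.06-fold difference, adjusted p = 3.4e-15), Glra1 (1.39, SE 0.10), Glra4 (1.14, SE 0.15), Gabra4 (1.00, SE 0.11), Gabrd (0.97, SE 0.11) and Glra3 (0.76, SE 0.10). The others were Grin2a (1.04, SE 0.05), Grik1 (0.87, SE 0.05), Grin1 (0.81, SE 0.06) and Grin3a (0.80, SE 0.10). The members lower in Pde6b rd10 were Grm3 (-1.56, SE 0.09), Grik3 (-1.46, SE 0.05), Grm7 (-1.10, SE 0.06), Gabra5 (-0.93, SE 0.22), Grik4 (-0.73, SE 0.12) and Grik2 (-0.67, SE 0.07). All 16 had an adjusted p under 0.05, and the largest was that of Gabra5, 0.00132. Gabrb1, with a log2 difference of 0.57 (SE 0.08), was just under the fold threshold, and was called with GC-corrected counts (0.67) and without Pde6b rd1 replicate 1 (0.59), Pde6b rd1 replicate 3 (0.63) or Pde6b rd10 replicate 2 (0.61).

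The receptors work with transporters, enzymes and scaffold proteins, which were followed in a list of 50 genes, all of them tested. In Pde6b rd1 none was called higher and 5 lower, a share of 10% beside 15.0% of all genes. The largest values were those of Glul, the glutamine synthetase of Müller glia, which turns glutamate into glutamine (mean FPKM 528 in C3H and 192 in Pde6b rd1, log2 fold change -1.54, SE 0.03, adjusted p = 8.7e-23), Slc17a7, the vesicular glutamate transporter VGLUT1 of photoreceptors and bipolar cells (-0.93, SE 0.03, adjusted p = 9.65e-18), and Shisa9, an auxiliary protein of AMPA receptors (-0.73, SE 0.07, adjusted p = 5.75e-09). In Pde6b rd10, 2 were called higher and 4 lower, 12% beside 23.9%. The largest values were those of Slc6a13, the GABA transporter GAT2 (2.84, SE 0.13, adjusted p = 1.09e-13), Slc1a3, the glutamate transporter of Müller glia (-0.76, SE 0.03, adjusted p = 1.17e-13), and Slc1a7, a glutamate transporter with a large chloride conductance (-0.69, SE 0.04, adjusted p = 9.6e-12). In Prph rd2 none of the 50 was called by edgeR, beside 4.57% of all genes, with 24 at an unadjusted p under 0.05. In Pde6b rd10 against Pde6b rd1, 12 were called higher and 2 lower, 28% beside 28.8%, with the largest values for Slc6a13 (3.53, adjusted p = 4.78e-14), Slc17a8, the vesicular transporter VGLUT3 (1.38, adjusted p = 3e-12), and Glul (1.21, adjusted p = 2.46e-16). Glul and Slc1a3 are also in the list of Müller glia markers, whose sums are given above. Gphn, which encodes gephyrin, the scaffold under glycine and GABA-A receptors, lay within 0.12 of C3H on the log2 scale in every model.

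A second readout of these genes was the number of reads across back-splice junctions, which join the end of an exon to the start of an earlier one and mark circular RNAs (circRNAs). Of 12510 circRNAs, 57 came from 20 member genes, with 597 junction reads in all, and in all 57 both ends fell on annotated exon ends. Most were rare: 19 had at most 3 reads in the 12 samples together, and 21 had at least 10. Grik1 had the most, 169 reads from 8 circRNAs, followed by Gabra2 with 71, Grm8 with 50, Grik2 with 45 and Grid1 with 44. The junctions of the most frequent circRNA and of the only one that was called are shown, with 20 bases on each side on the minus strand of GRCm38, and capitals mark the exon that follows the junction.
Grik1 circRNA, chr16:88034155-88056175, minus strand: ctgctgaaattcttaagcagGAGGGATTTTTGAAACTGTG
Gabra2 circRNA, chr5:71007923-71034797, minus strand: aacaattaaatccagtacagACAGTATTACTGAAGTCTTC
In the annotation the Grik1 circRNA spans exons 2 to 4 of the gene, with a spliced length of 608 bases, and the Gabra2 circRNA exons 4 to 7, with 516 bases. The Grik1 circRNA had 8, 5 and 6 reads in C3H, 4, 5 and 6 in Pde6b rd1, 6, 6 and 8 in Pde6b rd10, and 8, 8 and 7 in Prph rd2. It was present in all samples at like counts, and no difference was detectable at this depth, with a log2 fold change of 0.04 (SE 0.61) in Pde6b rd1, -0.16 (SE 0.57) in Pde6b rd10 and 0.16 (SE 0.54) in Prph rd2.

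Between 7 and 10 member circRNAs had enough reads for a test in each model, and calls needed a fold change of 2 or more with an unadjusted p below 0.05. None of 7 was called in Pde6b rd1, 1 of 10 in Pde6b rd10 and none of 8 in Prph rd2, beside 6.37, 11.8 and 3.35% of all circRNAs tested. In Pde6b rd1 and in Prph rd2 none had an unadjusted p under 0.05 with edgeR. The called circRNA was that of Gabra2, with no read in any C3H sample, 1, 2 and 6 reads in Pde6b rd1, 7, 2 and 3 in Pde6b rd10, and 0, 4 and 7 in Prph rd2. Set against the floor of 3 reads over the C3H group, the share of junction reads in the Pde6b rd10 samples was 3.36-fold that floor. This ratio was 4.47 for Pde6b rd1 and 3.27 for Prph rd2, where too few samples had reads for the test. The ratios allow for no counting error or spread in the few reads of the models, so they are not lower bounds. edgeR's quasi-likelihood test gave an unadjusted p of 0.00784 and an adjusted p of 0.131, so the call did not pass the correction over all circRNAs. It passed the read filter only through the Pde6b rd10 samples, so that a tested value had to be higher there, and without any 1 of them it was no longer tested. Gabra2 itself had a log2 fold change of -0.20 (SE 0.05, adjusted p = 0.00292) in Pde6b rd10, under the fold threshold. Of the 11 members called by gene counts, Grik2, Grik3, Grin2a and Grm3 had circRNAs, with 45, 24, 15 and 2 junction reads in all.

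**Figure D5:**
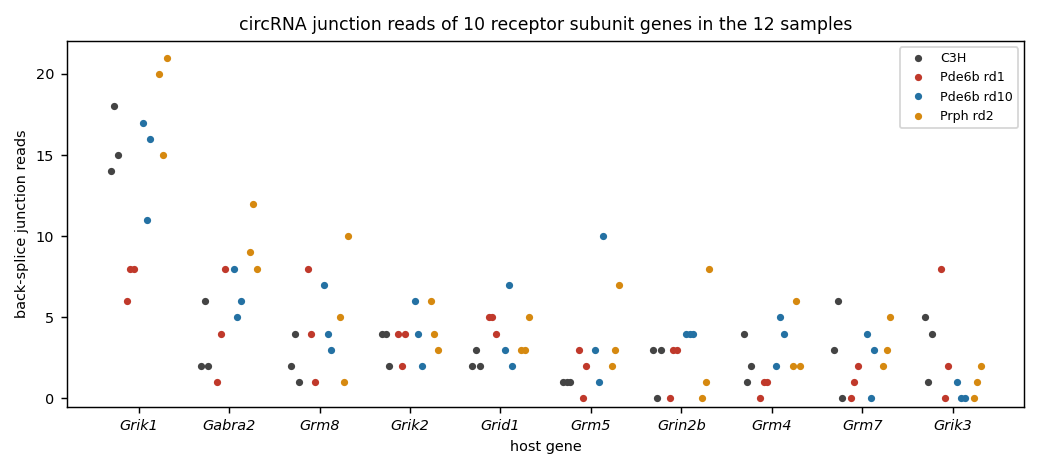
Back-splice junction reads summed over the circRNAs of each of 10 member genes, 1 point per sample, not corrected for the 9819 to 25009 junction reads of the samples. Grik1 has 6 to 21 reads per sample, and its Pde6b rd1 samples, at 6, 8 and 8, are its lowest. These samples held only 14966, 9819 and 11352 junction reads.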

How the data were processed

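Whole-retina total RNA was depleted of ribosomal RNA and sequenced from directional libraries, in 12 samples grouped by the genotype in their labels. The deposited gene counts come from reads which the authors mapped to GRCm38 and assigned to genes with HTSeq 0.11.2, without normalization, and the FPKM values are the authors' counts divided by gene length and by reads on genes. The circRNA junction counts were deposited by the authors from TopHat2 2.1.1 and CIRCexplorer, with candidates under 2 reads discarded, and their TPM values, which the authors scaled to the junction reads of each sample, were not used. The strand setting of the gene counting is not given in the sources used here.

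All genes were fitted with edgeR 4.0.16 in R 4.3.3 (TMM, its filter on low counts, quasi-likelihood test), each model with the 3 C3H samples in a fit of its own, and the Pde6b models against each other in a fit of all 12. Calls needed an unadjusted p under 0.05 and a fold of at least 1.5. CircRNAs with 2 or more reads in 3 or more of the 6 samples were tested, and calls needed a fold of 2. The fits were tested on simulated data. limma 3.58.1 on log2 FPKM values with 1 or 0.1 added, DESeq2 1.42.0, other size factors and filters, a GC correction, a replicate block, the same-day C3H sample alone and leaving out each sample were the alternatives. The members and lists were chosen with earlier results of these data known. Values in every sample were given for members called in at least 1 model, and for the 50 pathway genes the 3 called values of largest size per comparison. Plots and tables used Python 3.11.15.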

Additional observations from a re-analysis of the deposited data

Results flagged for a closer look

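The log2 fold change of Pde6b rd10 over Pde6b rd1 differed from 0 in edgeR's direct test for 16 members, at an adjusted p under 0.05 and a fold of at least 1.5, which brought them here as effects that differ between models. The values were 2.02 for Gabrr2, 1.39 for Glra1, 1.14 for Glra4, 1.04 for Grin2a, 1.00 for Gabra4, 0.97 for Gabrd, 0.87 for Grik1, 0.81 for Grin1, 0.80 for Grin3a and 0.76 for Glra3. They were -1.56 for Grm3, -1.46 for Grik3, -1.10 for Grm7, -0.93 for Gabra5, -0.73 for Grik4 and -0.67 for Grik2. All 3 samples of the higher model lay above all 3 of the lower model in FPKM for each of these genes. The genes were chosen by this same contrast, so this separation adds no support to the calls. Groups of 3 samples are too small for a test of single outlying samples.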

How the results depend on the processing

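The members called numbered 8 to 9 in Pde6b rd1, 5 to 7 in Pde6b rd10, 0 to 1 in Prph rd2 and 16 to 17 in the direct comparison when 1 sample was left out, and the call in Prph rd2 was that of Grik4 without replicate 1. With an adjusted p under 0.05 and no fold threshold they numbered 24, 24, 15 and 26 of 40. The shares of all genes tested at this threshold were, in the same order, 43.2, 54.1, 9.70 and 57.2%. With the same-day C3H sample alone, 1 member was called in Prph rd2, Gabrg1 (log2 fold change 0.63). The called circRNAs in Pde6b rd10 numbered 0 to 1 when 1 sample was left out, since the Gabra2 circRNA no longer passed the read filter, and was not tested, without any 1 of the Pde6b rd10 samples. Of 506 values of the 29 calls under alternatives, none changed sign and 14 were no longer called, of which 10 under limma, where the added constant shrinks low values. The 506 include the settings that put an adjusted p, with or without the fold threshold, on the main fit. Those repeat the main value and could not change its sign. They could lose no call either, since all 29 had an adjusted p under 0.05. In the shares, 7 alternatives for each of 75 differences gave 525 values, of which 32 moved by more than the replicate SD, all of them in shares of counts without length, and 18 had the other sign. The largest difference among the latter was 2.17 percentage points, that of Grin2b in Prph rd2, and no sign changed for a share named as different from C3H.

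With the replicate number as a block the members called were 8, 5, 0 and 16, so that no count changed. Correlations of same-numbered deviations lay between -0.06 and 0.13, and not all were above 0.1 in any comparison. In Pde6b rd1 against C3H they were 0.07, 0.06 and 0.12, each the highest for that Pde6b rd1 sample. These low values do not settle whether the numbers pair the samples. A difference in a circRNA of a few reads cannot be seen at 9819 to 25009 junction reads per sample.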

Other observations

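Within the C3H group, the member that varied most with the labelled age was Gabra5, at 0.644, 0.462 and 0.356 FPKM on days 13, 23 and 29, a log2 difference of -0.85 between days 29 and 13. Grin3b, a rare NMDA receptor subunit, stood at 0.474, 0.442 and 0.306 FPKM, and Grin2c at 0.7, 0.801 and 0.932. With 1 sample for each day these differences have no replicate check. They also rest on few reads, so that counting error is large. On days 13, 23 and 29 the reads were 38, 33 and 21 for Gabra5 and 31, 35 and 20 for Grin3b. For Grin2c they were 70, 97 and 93. Among 40 members, 2 reached a fold of 1.5 between days 29 and 13, Gabra5 and Grin3b, and Glra1 stood at 7.05 FPKM on all 3 days.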
